A study of Mus musculus with 6 samples.

Results

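The genes described here encode 6 receptors through which activated T cells receive costimulation: Tnfrsf4 (OX40), Tnfrsf9 (4-1BB), Tnfrsf18 (GITR), Tnfrsf1b (TNFR2), Cd27 and Icos. They were chosen by gene symbol from a list that was drawn up with earlier results of these data known. All 6 were found among the 18288 genes of the deposited table. They also passed the filter on low values (a normalized count of at least 10 in at least 3 libraries). The table holds RNA sequencing of mouse CD8+ T cells, the cytotoxic T cells, that were activated in culture and collected on day 2. The libraries fall into 3 labelled Nae1T-KO and 3 labelled Nae1WT. Nae1 encodes a subunit of the enzyme that activates NEDD8, a ubiquitin-like protein that is attached to cullins and other targets, and the design sets the transcripts of the 2 genotypes against each other. The labels give neither the strain nor the age of the mice, nor the Cre driver or the deleted exons, nor the activating stimulus, nor a treatment beyond activation. They call the replicates biological but do not name the mice behind each, and p-values therefore measure only the spread between these samples. There is no unstimulated group, so the induction of these receptors by activation cannot be read from these data.

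Costimulatory receptors add to the signal of the T cell receptor. Those of the TNF receptor superfamily are engaged by trimeric ligands on antigen-presenting or activated cells and recruit TRAF adaptors, which lead to the NF-kB and kinase pathways that favour survival and cytokine production. ICOS belongs instead to the CD28 family of immunoglobulin-type receptors and signals mainly through phosphoinositide 3-kinase. Naive T cells already carry CD27, whereas OX40, 4-1BB and ICOS appear or increase mainly after activation. In bulk RNA, more cells carrying a transcript and more transcript per cell cannot be told apart.

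Libraries held 15628300 to 25444700 reads assigned to genes. Values are normalized counts, that is, reads scaled by a single size factor for each library. Nae1 itself stood at 390.3, 337.5 and 366.5 in Nae1T-KO, far below the 1601, 1806 and 1882 of Nae1WT, a log2 fold change of -2.27 (limma, adjusted p = 5.03e-07). The CD8 T cell markers, 11 of 11 present, summed to 53210 to 54760 in Nae1T-KO and to 55210 to 59300 in Nae1WT, without overlap. Of these, Cd3g (-0.51) and Thy1 (-0.43) were called lower and Cd5 (0.53) higher. Xist, which the inactive X chromosome makes, was abundant in 3 libraries (replicates 1 and 2 of Nae1T-KO, replicate 3 of Nae1WT) and near 0 in the others, so both groups held libraries with and without it. Markers of other cells were scarcer. The 7 CD4 T cell markers summed to 287 to 512 in Nae1T-KO and 376 to 418 in Nae1WT, and Cd4 itself stood at 20.1 to 118 and 20.9 to 119. Summed levels of 11 of 13 B cell markers were 224 to 634 and 249 to 375, those of 9 of 15 myeloid and dendritic cell markers 225 to 300 and 183 to 225, those of 5 of 9 NK and gamma-delta T cell markers 64.3 to 82.8 and 55.4 to 73.7, and those of 8 erythroid markers 203 to 2058 and 145 to 654. The markers missing from these counts were not analysed here, and none of those present was at 0 in every library. Among them Cxcr5 and Zbtb46 were called lower and Xcr1 higher. Zbtb46, at 41.4 to 82.8 in Nae1T-KO and 112 to 135 in Nae1WT, made up much of the myeloid sum. With Zbtb46 set apart, after its values were seen, the other 8 markers of that list came to 151, 241 and 184 for Nae1T-KO. Each was above the 101, 71.1 and 90.6 of Nae1WT. Of the 8, 5 were higher in all Nae1T-KO libraries without overlap, while the groups did not overlap, in either direction, for 33.7% of all genes tested. Among the 5, Itgam and Cd14 were too low to be tested, at 0 to 11 and 0 to 15 reads. Mpeg1 was separate only by 22.2, the lowest Nae1T-KO value, against 22.1, the highest of Nae1WT. For all these lists the part of such cells in the receptor levels was not tested.

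Of the 6 receptor genes, Tnfrsf4 alone passed the test, and it rose modestly. The other 5 did not pass, and their estimates lay within 0.16 of 0 on the log2 scale. The test was limma on log2(normalized count + 1), with a call at a Benjamini-Hochberg adjusted p under 0.05 over all genes tested. Of 13819 genes, 12.7% were called in either direction, 6.53% as higher and 6.18% as lower in Nae1T-KO. A count of 1 called among 6 is 16.7%, near that background. The count of 0 lower members was also 0 at an unadjusted p under 0.05, and edgeR, DESeq2 and limma-voom each called 1 higher and 0 lower. The median log2 fold change of the 6 was -0.05, beside -0.01 for all genes tested, and the median size of the change, whatever its sign, was 0.07 beside 0.19. The groups did not overlap for 1 of the 6 members, and for 33.7% of all genes tested.

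**Figure D1:**
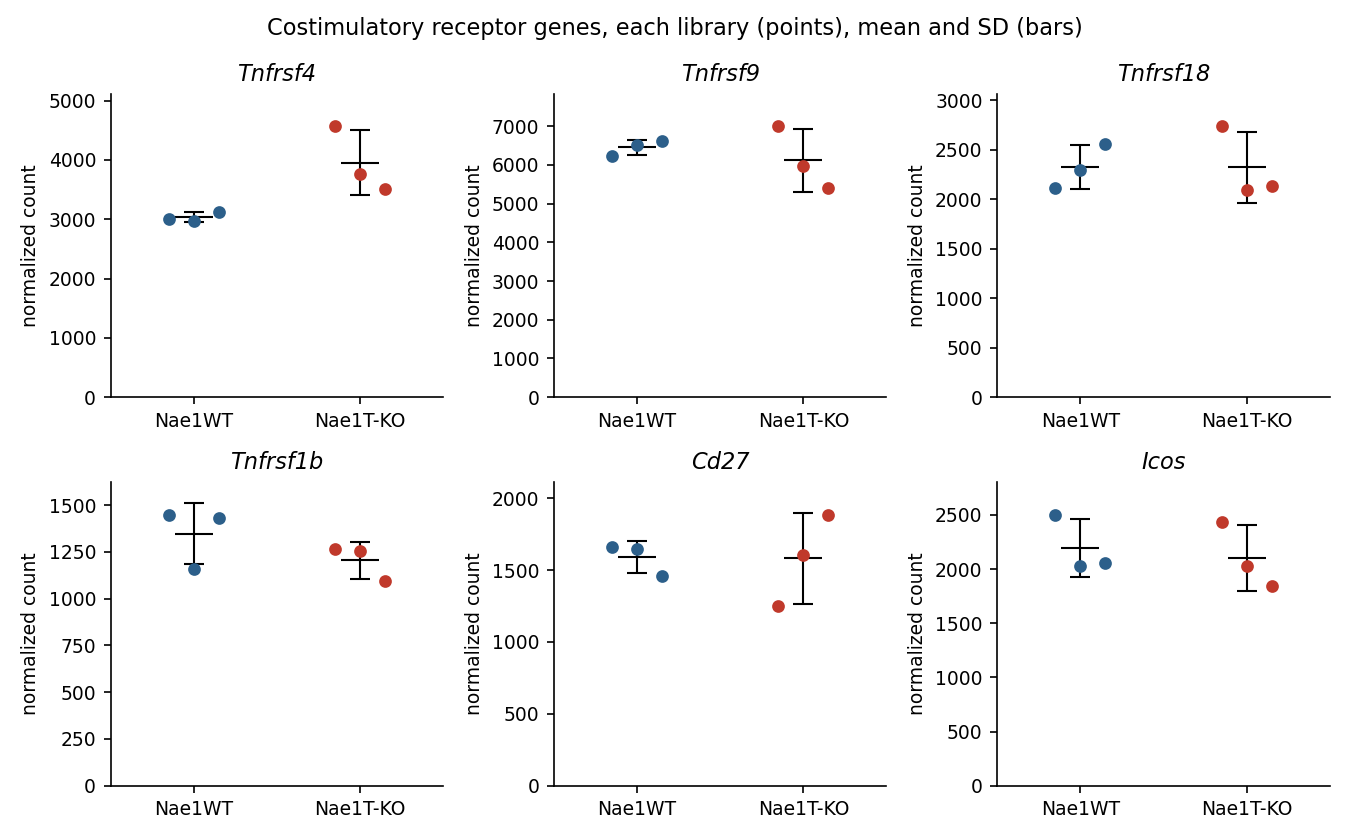
Normalized counts (vertical axes, from 0) of the 6 receptor genes in the 3 Nae1WT libraries (blue) and the 3 Nae1T-KO libraries (red), with points for libraries in replicate order and bars for the mean and SD. The Tnfrsf4 points of Nae1T-KO, 3518 to 4572, lie above those of Nae1WT, 2979 to 3129, while the points of the other 5 genes overlap.

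Tnfrsf4 encodes OX40, which binds OX40 ligand and sustains the survival of activated T cells. Its normalized count was 4572, 3766 and 3518 in Nae1T-KO replicates 1, 2 and 3 and 2996, 2979 and 3129 in Nae1WT replicates 1, 2 and 3. Every Nae1T-KO library was above every Nae1WT library, with replicate 1 of Nae1T-KO the highest. The means were 3952 ± 551 (SD, n = 3) for Nae1T-KO and 3035 ± 82.1 (SD, n = 3) for Nae1WT. By limma the log2 fold change was 0.37, its standard error 0.09 and its 95% interval 0.17 to 0.58 (adjusted p = 0.0261), a level 1.29-fold higher in Nae1T-KO. Among the genes called higher this is a small change, since 72.4% of them had a larger one and their median was 0.54. Behind the values stood 2440 to 4274 reads per library, for which counting error is at most 2.02% of the level, against a spread of 13.9% among the Nae1T-KO libraries.

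The direction for Tnfrsf4 held whichever library was left out, and the call held without Nae1T-KO replicate 2 (0.40, adjusted p = 0.0495) and Nae1T-KO replicate 3 (0.45, adjusted p = 0.0102) but not otherwise. Without Nae1T-KO replicate 1, its highest library, the log2 fold change was 0.26 (limma, adjusted p = 0.0591), and the call also ended without Nae1WT replicate 1 (0.36, adjusted p = 0.0663), Nae1WT replicate 2 (0.36, adjusted p = 0.0882) or else Nae1WT replicate 3 (0.40, adjusted p = 0.0645). Adjusted p ranged from 0.003 to 0.16 over 21 alternative fits, and the log2 fold change from 0.26 to 0.45. With sex in the fit these were 0.0448 and 0.32.

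Tnfrsf9 encodes 4-1BB, an activation-induced receptor that is prominent on CD8+ T cells, and had the most reads of the 6. Its normalized count was 7004, 5963 and 5400 in Nae1T-KO, compared with 6229, 6522 and 6610 in Nae1WT. The Nae1T-KO libraries spread around the Nae1WT ones, with the highest and the 2 lowest values. The means were 6122 ± 814 (SD, n = 3) and 6454 ± 200 (SD, n = 3), and limma put the log2 change at -0.08, within -0.29 to 0.12 at 95% confidence and with an adjusted p of 0.585, an interval that spans 0.821-fold to 1.085-fold.

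RefSeq places 2 transcript starts in Tnfrsf9, which lies on chromosome 4 from 150920155 to 150946104 on the plus strand of GRCm38. Its promoter sequences are shown because, among the 6 windows of 300 bases that RefSeq (GRCm38.p6) gives for 5 of the receptor genes, only those of Tnfrsf9 held a match to any of the motifs searched on both strands. These were TGACNNNGC, the core of the antioxidant response element bound by NRF2, TGANTCA, bound by AP-1, and the NF-kB consensus. They occur in 12.4%, 7.8% and 4.5% of all 32851 promoter windows. Capitals mark the matches. The upstream start had the antioxidant core 43 to 35 bases before it. The downstream start had overlapping NF-kB matches 43 to 33 bases before it and an AP-1 match 15 to 9 bases before it, and these stretches lie in an exon that GENCODE annotates.
Tnfrsf9 upstream start, chr4:150920095-150920154, plus strand: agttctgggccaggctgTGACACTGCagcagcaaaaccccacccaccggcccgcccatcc
Tnfrsf9 downstream start, chr4:150927951-150927970, plus strand: cagctGGGGATTTCCCagga
Tnfrsf9 downstream start, chr4:150927977-150927996, plus strand: gctcagtTGAGTCAcaggtc
A match is a description of these letters, and the counts are per gene and do not show which start was used. Tnfrsf9 did not pass the test in any of the 21 alternative fits, and its sign changed without Nae1T-KO replicate 3 (0.00236).

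Tnfrsf18 encodes GITR, which regulatory T cells carry at high levels and effector cells gain on activation. It had 2741, 2097 and 2133 normalized counts in Nae1T-KO, compared with 2116, 2301 and 2561 in Nae1WT. Nae1T-KO replicate 1 was again the highest library, and the other Nae1T-KO libraries lay among or below the Nae1WT ones. The means were 2324 ± 362 (SD, n = 3) and 2326 ± 224 (SD, n = 3), and limma put the log2 change at -0.01, within -0.25 to 0.24 at 95% confidence and with an adjusted p of 0.973. Under total-count scaling it was 0.0393, and it was likewise above 0 when Nae1T-KO replicate 2 (0.0604) or 3 (0.0484) or Nae1WT replicate 3 (0.0637) was left out. Regulatory T cell markers, 7 of 7 present, summed to 2230, 2482 and 2235 in Nae1T-KO, compared with 2060, 1981 and 2123 in Nae1WT. Each Nae1T-KO sum was above each Nae1WT sum. Nrp1, the 1 of them that passed and a large part of these sums, had 889, 1056 and 1045 against 641, 673 and 700.4. Foxp3, the defining factor of that lineage, had 12.3, 19.4 and 19.2 against 13.5, 5.23 and 8.38, which overlapped (limma, adjusted p = 0.188). Lrrc32, Ikzf2 and Ikzf4 had log2 fold changes below 0, at -0.70, -0.12 and -0.09 (adjusted p = 0.156, 0.598 and 0.825). Gpr83 and Izumo1r were at 0.10 and 0.05 (adjusted p = 0.903 and 0.819). The part of these cells in the level of Tnfrsf4 or Tnfrsf18 was not tested.

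Tnfrsf1b encodes TNFR2, the receptor for TNF and lymphotoxin alpha that lacks a death domain. Its normalized count was 1266, 1256 and 1092 in Nae1T-KO, compared with 1450, 1159 and 1434 in Nae1WT. Replicates 1 and 3 of Nae1WT were higher than all others, and replicate 2 of Nae1WT lay within the Nae1T-KO range. The means were 1204 ± 97.9 (SD, n = 3) and 1348 ± 163 (SD, n = 3), and limma put the log2 change at -0.16, within -0.38 to 0.07 at 95% confidence and with an adjusted p of 0.332. This was the lowest estimate of the 6, and it stayed below 0 in all 21 alternative fits, from -0.26 to -0.09.

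Cd27, the receptor for CD70, had the widest relative spread of the 6 genes among the Nae1T-KO libraries, 20.1% of the mean against 7.08% in Nae1WT. Its normalized count was 1252, 1605 and 1887 in Nae1T-KO, compared with 1664, 1650 and 1462 in Nae1WT. The Nae1T-KO libraries thus held both the lowest and the highest value. The means were 1581 ± 319 (SD, n = 3) and 1592 ± 113 (SD, n = 3), and limma put the log2 change at -0.03, within -0.33 to 0.27 at 95% confidence and with an adjusted p of 0.92. Nae1T-KO replicate 1, the lowest library for Cd27, was the highest for Tnfrsf4, Tnfrsf9 and Tnfrsf18. Cd27 was also lower in each of the 3 libraries with abundant Xist, 1252 to 1605, than in each of the other 3, 1650 to 1887. This was picked out after the values were seen, and the ranges of every other receptor gene overlapped in this split. The share of all genes separate in the same way was not counted, and a difference by sex was not tested. With sex as a covariate the log2 fold change of Cd27 between the genotypes was 0.0716, and under total-count scaling 0.0200. Without Nae1T-KO replicate 1 it was 0.131 (adjusted p = 0.433), and without Nae1WT replicate 1 it was 0.00587 (adjusted p = 0.988).

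Icos had 2434, 2025 and 1848 normalized counts in Nae1T-KO, compared with 2504, 2025 and 2059 in Nae1WT. In both groups replicate 1 was the highest library, and the other 4 libraries lay between 1848 and 2059. The means were 2102 ± 300.4 (SD, n = 3) and 2196 ± 267 (SD, n = 3), and limma put the log2 change at -0.07, within -0.32 to 0.19 at 95% confidence and with an adjusted p of 0.749. It was above 0 without Nae1T-KO replicate 3 (0.0227) and without Nae1WT replicate 1 (0.0326).

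**Figure D2:**
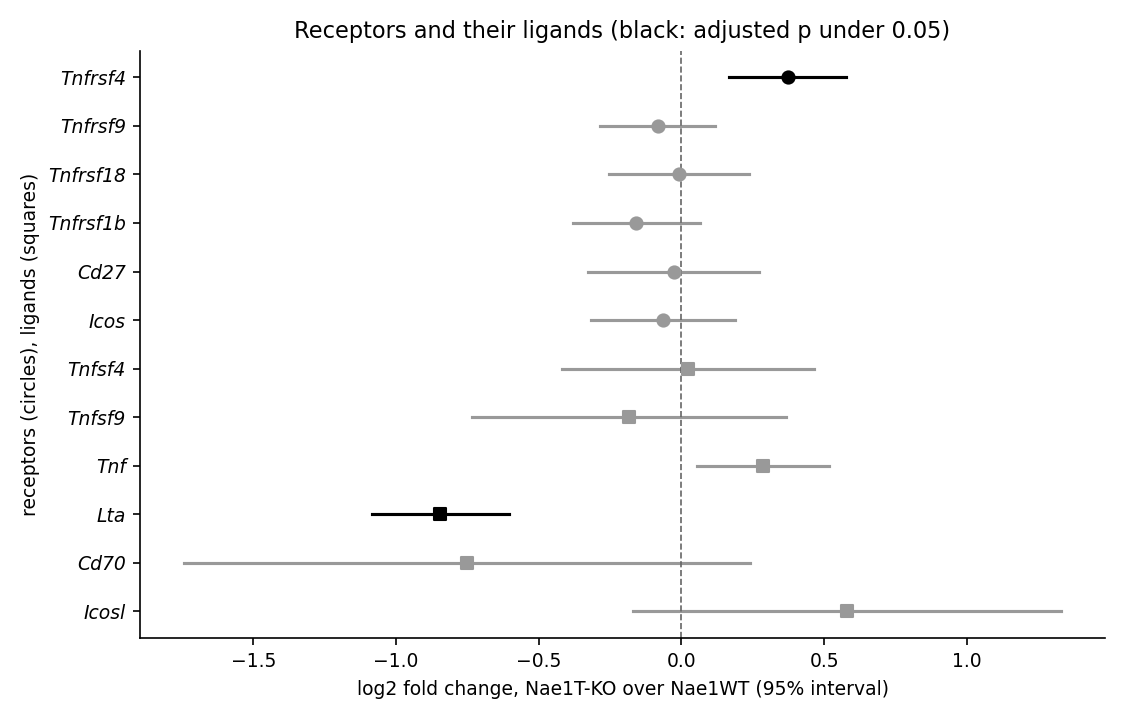
Log2 fold change of Nae1T-KO over Nae1WT (horizontal axis) with 95% intervals for the 6 receptor genes (circles) and 6 of their ligands (squares), in black where the adjusted p was under 0.05. Tnfrsf4 at 0.37 and Lta at -0.84 are the black points, and the intervals of the other receptors all include 0.

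Levels can be set against each other only per length, as normalized counts per kilobase of annotated exon. On that scale the order in Nae1WT was Tnfrsf9 at 2371 ± 73.3 (SD, n = 3), Tnfrsf4 at 2223 ± 60.2 (SD, n = 3), Tnfrsf18 at 1526 ± 147 (SD, n = 3), Cd27 at 684 ± 48.4 (SD, n = 3), Icos at 640.1 ± 77.9 (SD, n = 3) and Tnfrsf1b at 353 ± 42.8 (SD, n = 3). The library values of Tnfrsf9 and Tnfrsf4 overlapped there, as did those of Cd27 and Icos, and the other neighbours in this order were separate. In Nae1T-KO Tnfrsf4 led at 2895 ± 404 (SD, n = 3), ahead of Tnfrsf9 at 2249 ± 299 (SD, n = 3), and the libraries of this pair were separate by a small gap (2577 as the lowest Tnfrsf4 value, 2573 as the highest of Tnfrsf9). Cd27 and Icos again overlapped. Per length, Tnfrsf4 was above 97.4% and Tnfrsf9 above 97% of the 12829 tested genes that had an exon length, Tnfrsf18 above 94.9%, Cd27 above 87.7%, Icos above 86.6% and Tnfrsf1b above 76%.

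A ratio of 2 genes within a library does not depend on how libraries are scaled. Tnfrsf4 was higher relative to Tnfrsf9, Tnfrsf18, Tnfrsf1b and Icos in each library of Nae1T-KO than in any of Nae1WT. The ratio of Tnfrsf4 to Tnfrsf9 was 0.653, 0.632 and 0.651 in Nae1T-KO, above the 0.481, 0.457 and 0.473 of Nae1WT. The groups did not overlap, and the spread within each was small, with means of 0.645 ± 0.0118 (SD, n = 3) and 0.470 ± 0.0124 (SD, n = 3). Against Icos the ratio was 1.88, 1.86 and 1.90 in Nae1T-KO, compared with 1.197, 1.471 and 1.52 in Nae1WT. Against Tnfrsf18 it was 1.668, 1.796 and 1.650 against 1.416, 1.295 and 1.222, and against Tnfrsf1b 3.61, 3.00 and 3.22 against 2.07, 2.57 and 2.18. For Cd27 alone the groups' ratios overlapped, at 3.65, 2.35 and 1.86 against 1.80, 1.81 and 2.14. The log2 differences between the groups were 0.46 for Tnfrsf9, 0.44 for Icos, 0.38 for Tnfrsf18, 0.53 for Tnfrsf1b and 0.40 for Cd27. A two-sided exact permutation test gave p = 0.1 for the 4 separated ratios, the smallest that 3 libraries against 3 allow, and 0.2 for Cd27, with Benjamini-Hochberg values of 0.125 and 0.2 over the 5 ratios. The design thus cannot bring a single ratio past 0.05. The ratios share Tnfrsf4 as numerator, so they are not independent, and they were formed after the values of Tnfrsf4 were seen. Leaving out any 1 library kept the log2 difference between 0.435 and 0.473 for Tnfrsf9, between 0.331 and 0.437 for Tnfrsf18, between 0.458 and 0.622 for Tnfrsf1b and between 0.331 and 0.503 for Icos. For Cd27 it was 0.132 without Nae1T-KO replicate 1 and 0.617 without Nae1T-KO replicate 3.

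**Figure D3:**
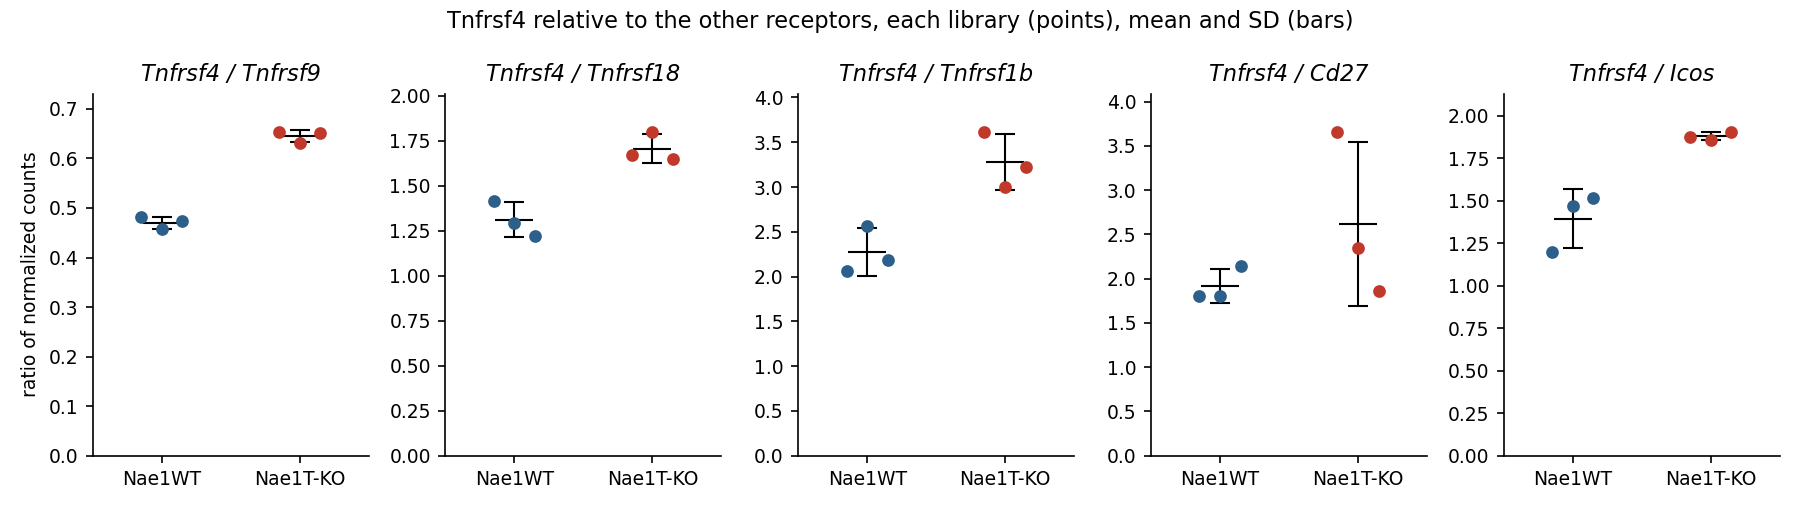
Ratio of the normalized count of Tnfrsf4 to that of each other receptor gene (vertical axes, from 0) in each Nae1WT library (blue) and Nae1T-KO library (red), with bars for the mean and SD. The ratio to Tnfrsf9 is 0.632 to 0.653 in Nae1T-KO and 0.457 to 0.481 in Nae1WT, and only the ratio to Cd27 overlaps.

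Position sets Tnfrsf4 and Tnfrsf18 side by side. Of the 6 genes, 4 lie on chromosome 4, where RefSeq (GRCm38) places Tnfrsf1b from 145212368 to 145246870, Tnfrsf4 from 156013595 to 156016613 and Tnfrsf18 from 156026322 to 156028894, the last pair on the same strand with 9.7 kb between them. Cd27 lies on chromosome 6 from 125232620 to 125237136 and Icos on chromosome 1 from 60960773 to 61000322. Of this pair, Tnfrsf4 passed the test and Tnfrsf18 did not, and the ratio above is the comparison of their changes.

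On its other side Tnfrsf4 adjoins Sdf4, a gene for a calcium-binding protein of the Golgi that lies upstream on the same strand and whose RefSeq span overlaps it by 16 bases. Sdf4 was picked out after its values were seen, in a window of 50 kb on each side of the pair. Its normalized count was 5767, 4784 and 4825 in Nae1T-KO, compared with 3762, 4058 and 4397 in Nae1WT, again with every Nae1T-KO library above every Nae1WT library. By limma the log2 fold change was 0.33, its standard error 0.09 and the adjusted p 0.0368, close to the 0.37 of Tnfrsf4. The ratio of Tnfrsf4 to Sdf4 was 0.793, 0.787 and 0.729 in Nae1T-KO, compared with 0.796, 0.734 and 0.712 in Nae1WT, and these overlapped, with a log2 difference of 0.04. The call for Sdf4 ended in 8 of 21 alternative fits, among them those without Nae1T-KO replicate 1 (0.24, adjusted p = 0.107), Nae1WT replicate 1 (0.27, adjusted p = 0.111), Nae1WT replicate 2 (0.33, adjusted p = 0.105) or else Nae1WT replicate 3 (0.39, adjusted p = 0.051), and adjusted p was 0.00864 to 0.218 over the alternatives. Of the remaining neighbours, C1qtnf12 had a log2 fold change of 0.51 (adjusted p = 0.126) and B3galt6, which sits beside Sdf4, one of -0.03 (adjusted p = 0.902). The part of reads that run on from Sdf4 in the level of Tnfrsf4 was not tested, since gene counts hold no positions.

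**Figure D4:**
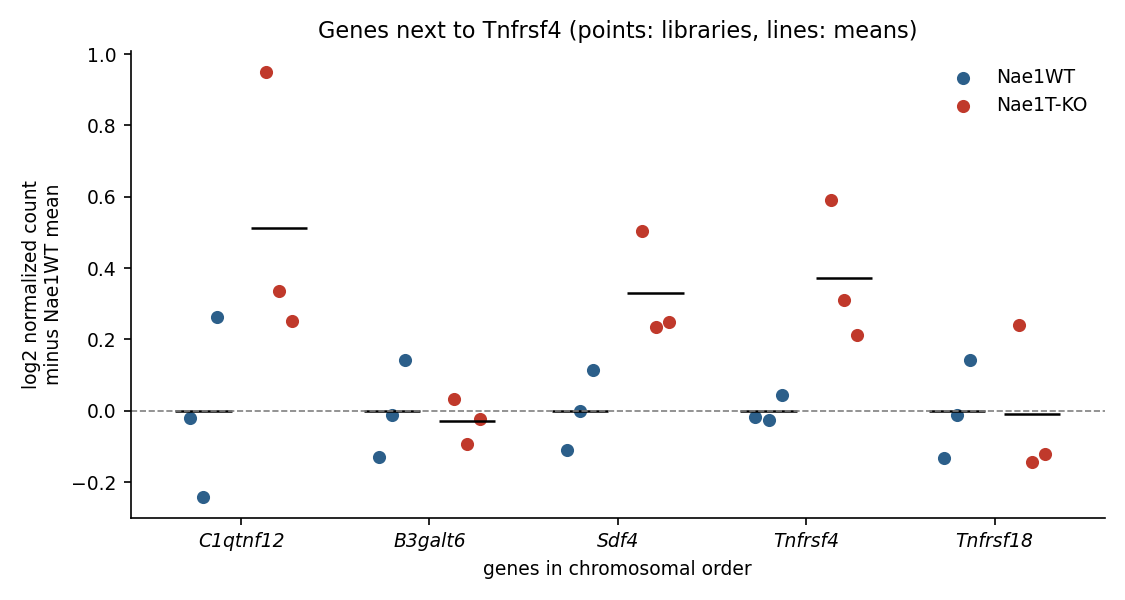
Log2 normalized count minus the Nae1WT mean (vertical axis) for the 5 genes with at least 100 reads in every library in the window around Tnfrsf4 and Tnfrsf18, in chromosomal order, with points for libraries and lines for group means. Sdf4 and Tnfrsf4 are higher in each Nae1T-KO library (red) than in each Nae1WT library (blue), by 0.33 and 0.37 on average, while B3galt6 and Tnfrsf18 overlap.

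Some receptor genes overlap other genes, and strand use in the counting is not given in the sources used here. These partners were far less abundant. Camta1, across from Tnfrsf9, had 315 to 403 normalized counts, Gm16008, across from Tnfrsf18, 19.6 to 36.9, and Vamp1 and E130112N10Rik, which overlap Cd27 in GENCODE and RefSeq respectively, 141 to 200.1 and 27.2 to 53.5. None of the 4 passed the test. The strand of E130112N10Rik was not looked up here, and the effect of the overlaps on the receptor counts was not tested.

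Among the receptor genes 2 varied by more than 0.5 on the log2 scale over the 6 libraries, Tnfrsf4 (0.618) and Cd27 (0.592), and for these the genes with the most similar profile were sought. Likeness was the root mean square difference between log2 profiles centred on their mean, over 6 libraries and 9112 genes with a mean normalized count of at least 100. Nearest to Tnfrsf4 was Traf4, which encodes a TRAF family adaptor, at 0.0424, followed by Pla2g15, which encodes a lysosomal phospholipase, at 0.0481, where the median gene was at 0.251. Traf4 had 2095, 1681 and 1492 normalized counts in Nae1T-KO, compared with 1303, 1362 and 1433 in Nae1WT. The groups did not overlap, but the log2 fold change of 0.35 did not pass (limma, adjusted p = 0.0686). A gene picked for its likeness to Tnfrsf4 must differ between the groups much as Tnfrsf4 does, so these values of Traf4 are not separate evidence. On leaving out Nae1T-KO replicate 3 Traf4 passed (0.46, adjusted p = 0.0161), and the alternatives spanned 0.0161 to 0.281. Nearest to Cd27 were Rccd1 at 0.0411 and Slc2a4rg-ps, listed as a pseudogene by its symbol, at 0.0505, where the median gene was at 0.233.

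Antigen-presenting cells make several of the ligands of these receptors, while Tnf and Lta are also products of activated T cells. Of 7 listed, 6 were tested, and limma called 0 higher and 1 lower, with 1 and 1 at an unadjusted p under 0.05 and the same 0 and 1 by edgeR, DESeq2 and limma-voom. Lta, which encodes lymphotoxin alpha, a ligand of TNFR1 and TNFR2, fell by 0.84 on the log2 scale (adjusted p = 0.00141), with 1959, 1440 and 1866 normalized counts in Nae1T-KO libraries versus 2960, 3181 and 3238 in Nae1WT. Tnf, the other ligand of TNFR1 and TNFR2, did not pass, although its groups did not overlap, with 1300, 1511 and 1775 against 1240, 1295 and 1201 (log2 fold change 0.28, adjusted p = 0.0998). On leaving out Nae1T-KO replicate 1 it passed (0.40, adjusted p = 0.0313), as it did when sex was added to the fit (0.35, adjusted p = 0.0378), and adjusted p was 0.0313 to 0.37 over its alternatives. OX40 ligand (Tnfsf4) had 102 to 152 and 109 to 158 normalized counts, a log2 fold change of 0.02 (adjusted p = 0.955) whose sign changed without Nae1T-KO replicate 3 (-0.11). 4-1BB ligand (Tnfsf9) had 33.5 to 59 and 50.3 to 59.6 (-0.18, adjusted p = 0.672). Cd70 and Icosl were scarce, at 5.59 to 19.9 and 9.41 to 22 normalized counts, and did not pass (-0.75, adjusted p = 0.295, and 0.58, adjusted p = 0.287). Tnfsf18, the GITR ligand gene, was not analysed here.

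Other TNF receptors and costimulatory or coinhibitory receptors changed in each direction. Of 22 listed TNF receptor genes outside the 6, 14 were tested, of which 2 were higher and 1 lower, 21.4% beside the 12.7% of all genes tested. Tnfrsf1a, which encodes TNFR1, the death-domain receptor that shares its ligands with TNFR2, had 381, 418 and 388 normalized counts in Nae1T-KO, compared with 269, 311 and 294 in Nae1WT (log2 fold change 0.44, adjusted p = 0.0185). Its call ended without Nae1T-KO replicate 2 (0.40, adjusted p = 0.0688), Nae1WT replicate 1 (0.39, adjusted p = 0.0571) or else Nae1WT replicate 3 (0.45, adjusted p = 0.0575), and the alternatives spanned 0.00848 to 0.292. Tnfrsf10b, a receptor for the death ligand TRAIL, had 507, 587 and 557 against 453, 415 and 347 (0.45, adjusted p = 0.0289), and no longer passed on leaving out Nae1T-KO replicate 2 (0.40, adjusted p = 0.094), Nae1T-KO replicate 3 (0.44, adjusted p = 0.0547), Nae1WT replicate 2 (0.47, adjusted p = 0.069) or else Nae1WT replicate 3 (0.34, adjusted p = 0.104), and the alternatives spanned 0.0091 to 0.145. Fas, the death receptor for Fas ligand, fell by 0.56 (adjusted p = 0.00252), with 426, 424 and 436 against 663, 607 and 624. Among 12 tested receptors of the CD28 family and other costimulatory or coinhibitory receptors, 5 were higher and 2 lower (58.3%, beside the same 12.7%), with a median log2 fold change of 0.30, and 4 in all were called without Nae1T-KO replicate 2 or without Nae1WT replicate 2. The largest changes were in Havcr2 (TIM-3) at 1.32 (adjusted p = 0.00275), the inhibitory receptor gene Tigit at 0.97 (adjusted p = 0.000161) and Cd5, a scavenger receptor-type dampener of T cell receptor signals, at 0.53 (adjusted p = 0.0104), and these 3 did not overlap between the groups. Both lists were drawn up with earlier results of these data known, so their counts are not independent evidence.

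The adaptors below the TNF receptors were called about as often as genes in general, 14.3% beside 12.7%. Of 14 tested adaptors and partners, limma called 0 higher and 2 lower, with 3 and 3 at an unadjusted p under 0.05. EdgeR called 0 and 1, DESeq2 1 and 2, and limma-voom 0 and 2. The direction of the calls depended on the scaling: with total-count scaling 2 were higher, Traf4 among them (0.40, adjusted p = 0.0467), and 0 lower, with Birc3 at -0.22 (adjusted p = 0.0627) and Tank at -0.20 (adjusted p = 0.109). Birc3, which encodes the ubiquitin ligase cIAP2 that TRAF2 carries, fell by 0.26 (adjusted p = 0.0248), with 1779, 1711 and 1650 normalized counts in Nae1T-KO libraries versus 2096, 2064 and 2015 in Nae1WT. Tank, which encodes a TRAF-binding protein, fell by 0.25 (adjusted p = 0.0435), with 1348, 1287 and 1299 against 1639, 1461 and 1583. The call for Birc3 ended on leaving out Nae1WT replicate 1 (adjusted p = 0.0688), 2 (0.0915) or 3 (0.074) or Nae1T-KO replicate 2 (0.0626), and that for Tank whichever library was left out (0.062 to 0.142). They ended in 8 and 14 of 21 alternative fits, with adjusted p of 0.0109 to 0.269 and 0.0323 to 0.406. Traf1, Traf2 and Traf3 had log2 fold changes of -0.06, -0.02 and -0.02 (adjusted p = 0.6, 0.901 and 0.884). Traf5, named after its values were seen, had 387, 430 and 435 normalized counts against 345, 317 and 348. Its groups did not overlap, but its log2 fold change of 0.31 did not pass (limma, adjusted p = 0.0628).

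Of 19 tested kinases, subunits and inhibitors of NF-kB, 4 were higher and 4 lower, 42.1% against the background of 12.7%. This list too was drawn up with earlier results of these data known, so its count is not independent evidence. With total-count scaling 4 were higher and 1 lower. Map3k14, which encodes NIK, the kinase of the noncanonical arm that TRAF3 and the cIAP proteins keep low, had 765, 808 and 684 normalized counts in Nae1T-KO, compared with 465, 442 and 466 in Nae1WT (log2 fold change 0.71, adjusted p = 0.00117). Nfkbid, an atypical nuclear inhibitor of the family, had 1827, 2008 and 2060 against 1270, 1271 and 1248 (0.64, adjusted p = 0.000647), and Rela, the p65 subunit, 1442, 1676 and 1594 against 1163, 1124 and 1176 (0.44, adjusted p = 0.00517). The groups did not overlap for these 3, and each kept its call whichever library was left out. Nfkb1, named after its values were seen, was the fourth (0.28, adjusted p = 0.0411). Leaving out 1 library gave 4 called genes of this list without Nae1T-KO replicate 1, Nae1WT replicate 1 or Nae1WT replicate 2, 5 without Nae1T-KO replicate 2 or Nae1WT replicate 3 and 7 without Nae1T-KO replicate 3, in place of 8. The 4 lower genes, which the naming rule did not cover and which were chosen after their values were seen, were Nfkbia at -0.43, Tnfaip3 at -0.43, Nfkbie at -0.42 and Chuk at -0.23, with adjusted p of 0.00489, 0.0232, 0.0308 and 0.0452. Nfkbia and Nfkbie encode cytoplasmic inhibitors, Tnfaip3 the feedback regulator A20 and Chuk a subunit of the activating kinase. The median of the list was -0.01.

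The remaining lists, likewise drawn up with earlier results of these data known, are set beside the same 12.7%. They had 6.67% called in the phosphoinositide 3-kinase arm, 25% in RNA decay, 20% in shedding and 0% among survival genes, each from a small number of genes. Of 15 tested genes of the phosphoinositide 3-kinase arm below ICOS, limma called 1 higher and 0 lower, with 5 and 2 at an unadjusted p under 0.05. EdgeR and limma-voom also called 1 and 0, and DESeq2 3 and 0. The called gene was the adaptor Grb2 at 0.29 (adjusted p = 0.0187), which no longer passed on leaving out Nae1T-KO replicate 1 (0.28, adjusted p = 0.057), Nae1T-KO replicate 2 (0.26, adjusted p = 0.0624), Nae1WT replicate 2 (0.29, adjusted p = 0.0697) or else Nae1WT replicate 3 (0.30, adjusted p = 0.0671), and the alternatives spanned 0.00442 to 0.265. Of 8 genes for RNA-binding proteins and nucleases of messenger decay, limma called 2 higher and 0 lower, with 4 and 0 at an unadjusted p under 0.05. EdgeR and DESeq2 called 3 and 0, and limma-voom 2 and 0. Zfp36l1, of a family that promotes the decay of AU-rich messengers, had 2353, 2745 and 2944 normalized counts in Nae1T-KO, compared with 1779, 1721 and 1752 in Nae1WT (0.61, adjusted p = 0.0019). Zc3h12a, which encodes the nuclease Regnase-1, had 434, 460 and 442 against 291, 299 and 304 (0.58, adjusted p = 0.0033). Rc3h1, which encodes Roquin-1, a repressor of Icos and Tnfrsf4 messengers, did not pass (0.27, adjusted p = 0.144). Among 5 shedding genes, Rhbdf2, the iRhom2 partner of the sheddase ADAM17, was higher at 1.00 (adjusted p = 0.00115), with 389, 403 and 483 against 187, 225 and 225. No gene of this list was called lower by limma, edgeR, DESeq2 or limma-voom, and 1 was lower at an unadjusted p under 0.05. Of 11 survival genes known as outputs of these receptors, limma, edgeR and limma-voom called 0, and DESeq2 called 2 higher, with 2 higher and 1 lower at an unadjusted p under 0.05 in limma. Among them Bcl2a1a, Bcl2a1b and Bcl2a1d are near-identical copies, between which the counting could split reads.

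**Figure D5:**
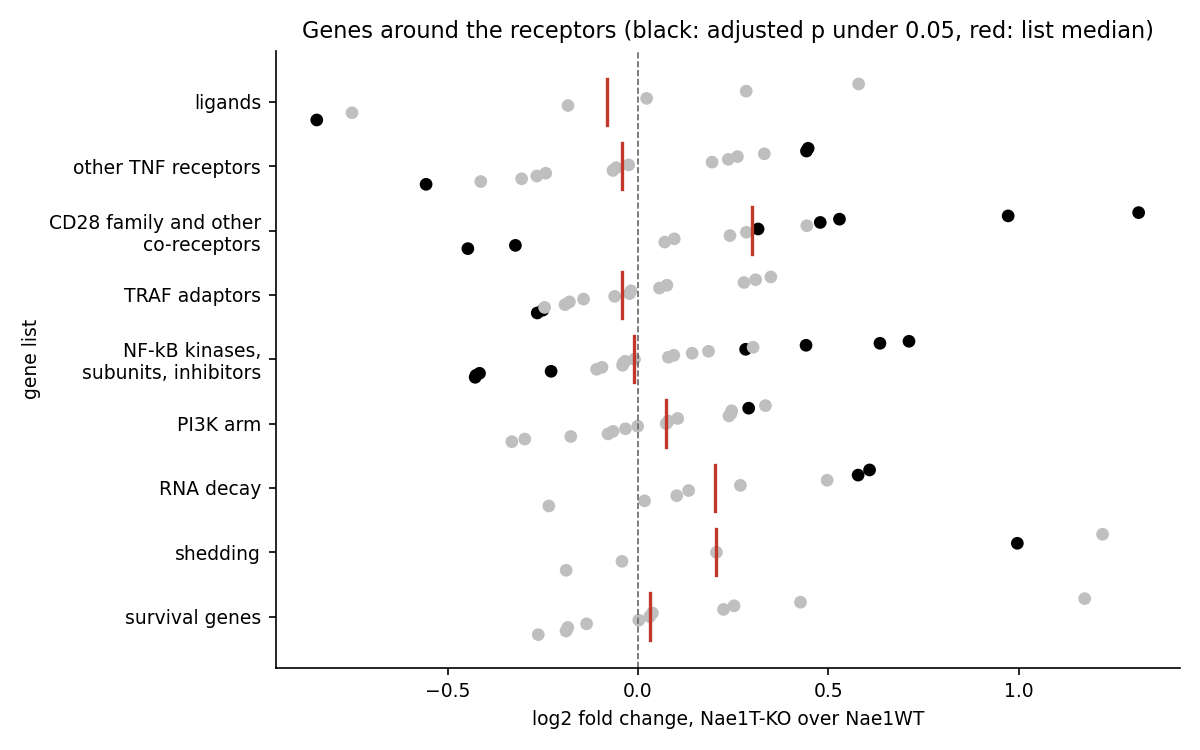
Log2 fold change of Nae1T-KO over Nae1WT (horizontal axis) for the tested genes of 9 lists around the receptors (rows), in black where the adjusted p was under 0.05 and with the list median as a red line. The NF-kB row has 4 black points on each side of 0, the row of the CD28 family and other costimulatory or coinhibitory receptors has 5 on the right and 2 on the left, and the survival row has none.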

How the data were processed

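RNA sequencing covered 3 Nae1T-KO and 3 Nae1WT samples, grouped by their titles. Per the submitters' processing notes, bcl2fastq, HISAT2, DESeq2 1.42.0 and build mm10 were used, with counter, annotation and strand use not given in the sources used here. The authors deposited 1 table of signal values, normalized counts without negative entries. Every value was a whole multiple of the value of 1 read (tolerance 0.001 of a read, 100% of values in each library), so reads were recovered for count tests. For Nae1T-KO replicate 3 that value is close to 1 and recovery is less certain. Recovered reads assigned to genes came to 15628300 to 25444700 per library.

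Genes with a normalized count of at least 10 in at least 3 libraries (13819) were compared between the groups by limma 3.58.1 (R 4.3.3) after a log2(normalized count + 1) transform of the deposited values, using the trend and robust options, no covariate, two-sided tests, Benjamini-Hochberg adjustment over all tested genes and calls under 0.05. This scale understates the change of low genes. Exon lengths were unions of GENCODE M21 exons (GRCm38), matched by symbol for 88% of genes. Spans and promoters came from RefSeq (GRCm38.p6), and 5 of 6 members had a promoter window. The members and lists were chosen with earlier results of these data known.

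Named genes were the 6 members, Nae1, every tested ligand, up to 3 called genes per list with the largest change at a mean normalized count of at least 50, and the 2 nearest profiles of each member ranging over more than 0.5. The 9 gene lists are the ligands, other TNF receptors, CD28 family and other costimulatory or coinhibitory receptors (Cd5 and Cd6 among them), TRAF adaptors, NF-kB genes, phosphoinositide 3-kinase genes, RNA decay, shedding and survival. Alternatives tried were TMM, upper-quartile or total-count scaling, dropping the filter or tightening it (5 CPM) and pseudocounts of 0.5 and 5. Others were leaving out each library, replicate blocks, sex (taken from Xist alone) and count tests on recovered reads (DESeq2 1.42.0, edgeR 4.0.16, limma-voom). The last were no trend, an adjusted p under 0.01 and a test against 1.5-fold. Leaving out libraries for the ratios was added after seeing the data. The fits were also run on simulated counts with known changes, and the outcome is not given here. Those counts were drawn independently for each library, without a sex difference, unlike these data.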

Additional observations from a re-analysis of the deposited data

How the results depend on the processing

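Tnfrsf4 kept its direction in all 21 alternative fits and its call in 14. It was 0.372 with the replicate block (adjusted p = 0.0548), 0.393 with the block on library-name numbers in 4 libraries (adjusted p = 0.16) and 0.372 without trend and robust estimation (adjusted p = 0.116). In these 3 fits, and with an adjusted p under 0.01 or a test against 1.5-fold, 0 of the 6 members were called. None of the other 5 members was called in any of the 21. Signs changed under total-count scaling for Tnfrsf18 (0.0393), Cd27 (0.0200) and Slc2a4rg-ps (0.0238), with the block on library-name numbers for Icos (0.0547) and Tnfsf4 (-0.0877), and with sex as a covariate for Cd27 (0.0716), Rccd1 (0.0178) and Slc2a4rg-ps (0.0754). Leaving out 1 library gave 0.263 to 0.452 for Tnfrsf4, -0.185 to 0.00236 for Tnfrsf9, -0.133 to 0.0637 for Tnfrsf18, -0.263 to -0.0885 for Tnfrsf1b, -0.165 to 0.131 for Cd27, -0.176 to 0.0326 for Icos, -0.109 to 0.196 for Tnfsf4, -0.336 to 0.063 for Tnfsf9, -0.184 to 0.083 for Rccd1, -0.151 to 0.0966 for Slc2a4rg-ps and 0 to 1 member called. Tnfsf9, Cd70 and Icosl could be tested in 20, 16 and 20 of the 21. Over all genes 1757 were called, 842 to 1767 without 1 library (1017 when Nae1T-KO replicate 2 was left out, 842 for Nae1WT replicate 2 and 954 for Nae1WT replicate 3), 968 with the replicate block, 314 with the block on library-name numbers, 791 without trend and robust estimation, 585 at an adjusted p under 0.01 and 42 against 1.5-fold. With total-count scaling 1176 were higher and 621 lower, in place of 903 and 854. The 9 lists had 25 called genes, 14 to 28 without 1 library (14 when replicate 2 of either group was left out and 15 for Nae1WT replicate 3), and in the same 5 settings 14, 9, 13, 12 and 0. Libraries with the same replicate number did not deviate together (correlations across genes of -0.13, -0.177 and -0.266). Those with the same library-name number did not either (-0.128 for Nae1T-KO replicate 1 with Nae1WT replicate 2, -0.266 for replicate 3 of both). Each of these same-number pairs joined a library with abundant Xist to one without, so the correlations cannot decide whether the numbers are pairs. The labels give no pairing, and the numbers were not taken as pairs. The highest correlations joined different numbers. They were 0.259 for Nae1T-KO replicate 3 with Nae1WT replicate 2 and 0.229 for Nae1T-KO replicate 1 with Nae1WT replicate 3. The libraries in each of these pairs were alike in Xist. The NF-kB list had 4 called genes with the replicate block (3 higher, 1 lower), in place of 8. The cause of these changes was not tested. Each member had at least 1081 reads in every library, and the effect of depth was not tested.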
